A study of Mus musculus with 17 samples.

Results

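The nuclei described here were neurons with counted RNA of Slc17a6, which encodes the vesicular glutamate transporter VGLUT2, and little or no counted RNA of the genes that mark the main other neuron classes of the posterior brain. They were nuclei that the authors labelled as neurons, did not call doublets and did not place in their cluster 13. Each held 3 or more molecules (unique molecular identifiers, UMIs) of Slc17a6, 0 of Slc17a7, at most 1 of Tcf7l2 and at most 1 of Gad1 and Gad2 summed. The rule found 699 nuclei among 142659 eligible neurons and 284074 nuclei in all, between 24 and 62 per mouse. The members were thus chosen on measured counts, so their levels against other classes are descriptions without a test. The working label, other subcortical excitatory neurons, held only in part. A cluster of 61 members carried a cortical marker and a cluster of 34 carried thalamic markers, and the nuclei are called Slc17a6 neurons below.

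Slc17a6 loads glutamate into synaptic vesicles and marks most excitatory neurons of the thalamus, hypothalamus, midbrain and hindbrain, while Slc17a7 (VGLUT1) marks most of those of the cortex, hippocampus and cerebellum. Subcortical Slc17a6 neurons come in many small groups that keep the transcription factors of the region where they arose. The target, Malat1, is a noncoding transcript retained in the nucleus and abundant in neurons. An antisense oligonucleotide (ASO) of the kind that recruits RNase H pairs with its RNA in the nucleus and leads to cleavage. The transferrin receptor (TfR) on brain endothelial cells carries bound cargo across the blood-brain barrier.

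Single-nucleus RNA was counted in the posterior brain of 17 mice. All of them, controls included, carried a human TfR knock-in (labelled hTfR KI HOM) and were females aged 2.3 months. The groups were saline (n = 4), Malat1 ASO, the free oligonucleotide, at 2 mg/kg (n = 4), anti-TfR:Malat1, the oligonucleotide on an antibody to TfR, at 50 mg/kg (n = 6), and OTV:Malat1, the oligonucleotide on a TfR-binding transport vehicle, at 50 mg/kg (n = 3). Each mouse received 4 weekly intravenous doses, and tissue was taken 72 h after the last. The comparisons below ask whether Malat1 and other transcripts of the Slc17a6 neurons differed between the compounds, each mouse being 1 replicate.

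The members of 1 mouse summed to 114835 to 398178 UMIs, against 55393588 to 79866411 UMIs over all nuclei of a mouse. A member held a median of 5127 UMIs (1197 to 14968), and the median over all eligible neurons was 4283. Slc17a6 itself was counted 3 times in 512 members, 4 times in 129, 5 times in 39 and 6 to 8 times in the other 19. Of 273792 distinct barcode sequences, 10044 occurred in more than 1 library, with 50 to 110 shared by any 2 libraries, and 47 members carried such a barcode. At the edges of the rule, the 512 nuclei with 3 Slc17a6 UMIs held 112 CPM (UMIs of a gene per 1000000 UMIs) of Ebf2 and the 1866 nuclei just outside, with 2, held 115 CPM. The 108 members with 1 Tcf7l2 UMI held 161 CPM of Synpo2, and the 140 nuclei outside with 2 held 440 CPM.

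Markers were set beside 4 other classes built from the same files. These were thalamic-type neurons (the same rule but 2 or more Tcf7l2 UMIs, 836 nuclei), Slc17a7 neurons (8225), GABAergic neurons (10614) and oligodendrocytes as the authors labelled them (71388). Levels are CPM of a class's UMIs, averaged over the 17 mice. Slc17a6, which the rule used, stood at 657 CPM in the members, 513 CPM in thalamic-type neurons and 18.4 CPM in oligodendrocytes. The 7 genes listed for hypothalamus, mammillary and subthalamic nuclei summed to 80.3 CPM in the members and 1.17 CPM in thalamic-type neurons. Sim1, a transcription factor of paraventricular and other hypothalamic neurons, made up most of that sum. It stood at 45.9 CPM in the members, with a UMI in 76 nuclei (10.9%, 95% Clopper-Pearson interval 8.66 to 13.4%, counting error only), and at 0.246 CPM or less in thalamic-type, Slc17a7 and GABAergic neurons. Lmx1a was found in 31 members, Nkx2-1 in 17, Barhl1 in 7 and Foxb1, a mammillary factor, in 3.

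The 8 midbrain genes summed to 139 CPM in the members and 44.7 CPM in thalamic-type neurons. Ebf2 accounted for most of this, at 108 CPM with a UMI in 115 members (16.5%), against 11.1 CPM in thalamic-type and 0.533 CPM in Slc17a7 neurons. Tfap2d, a factor of tectal excitatory neurons, had a UMI in 48 members and was no higher in the members than in thalamic-type neurons (19.1 and 23.8 CPM). Pax7, Otx2 and En1 had a UMI in 2 members each. Hindbrain genes were scarce, with a sum of 6.40 CPM, and Hoxa3, Hoxb2, Hoxb3, Hoxb4, Hoxb5 and Tlx3 were at 0 of 699 members, which allows a share of nuclei with a UMI of up to 0.429%. Each of these Hox genes had a UMI in at most 3 nuclei of any other class. Slc6a5 (the glycine transporter of hindbrain inhibitory neurons), Chrnb4 (habenula), Slc6a4 (serotonin neurons), Gabra6 (cerebellar granule cells) and Pcp2 (Purkinje cells) were also at 0. Other genes of the same lists were counted. The habenula list summed to 115 CPM in the members and 102 CPM in thalamic-type neurons. Most of it in the members was Nwd2 (a UMI in 195 members), which stood at 269 CPM in Slc17a7 neurons, while Pou4f1 had a UMI in 13 members. Of the monoamine and acetylcholine list, Ddc and Slc18a2 had a UMI in 23 members each, and of the cerebellar list, Car8 in 25.

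Thalamic genes summed to 2747 CPM in the members and 9566 CPM in thalamic-type neurons, a separation that the Tcf7l2 limit partly sets. Lef1, which acts with Tcf7l2 in thalamic neurons, had a UMI in 110 members (15.7%) and in 68.4% of thalamic-type neurons. Prkcd, a marker of thalamic relay neurons, stood at 13.5 and 184 CPM, Synpo2 at 48.7 and 844 CPM and Ntng1 at 806 and 3805 CPM. Rora was detected in 680 of the 699 members, and also in 93.0% of Slc17a7 and 91.2% of GABAergic neurons. At 1758 CPM it made up most of the members' thalamic sum. The cortical and hippocampal list summed to 181 CPM in the members, 183 CPM in thalamic-type neurons and 796 CPM in Slc17a7 neurons. Of its genes, Neurod6, a factor of cortical and hippocampal excitatory neurons, had a UMI in 28 members (4.01%, interval 2.68 to 5.74%), against 1.56% of thalamic-type neurons, 24.0% of Slc17a7 neurons and 1.26% of oligodendrocytes.

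Genes listed as markers of other cell types differed in level. The GABA and glycine list summed to 94.6 CPM in the members and 1507 CPM in GABAergic neurons. Gad1 and Gad2, which the rule limited, make GABA from glutamate. Slc32a1, the vesicular GABA transporter, had a UMI in 19 members. The 6 oligodendrocyte genes summed to 137 CPM in the members and 14812 CPM in oligodendrocytes. The 5 astrocyte genes summed to 102 CPM in the members, nearly all of it from the glutamate transporter Slc1a2 (97.7 CPM, a UMI in 198 members), while Slc1a3 had a UMI in 11 members and Gfap was at 0 of 699. The 6 vascular genes summed to 2.80 CPM, with the endothelial genes Flt1 and Cldn5 at 0. The 4 oligodendrocyte precursor genes summed to 940 CPM, of which Lhfpl3 made up 925 CPM, with a UMI in 588 members (84.1%). Lhfpl3 also stood at 1104 CPM in thalamic-type and 559 CPM in GABAergic neurons, whereas Pdgfra and Cspg4 had a UMI in 2 members each. The 5 microglia genes summed to 82.9 CPM in the members and 58.8 to 71.4 CPM in the other neurons. Among them P2ry12 had a UMI in 157 members, Csf1r in 2 and Ctss in 1.

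**Figure D1:**
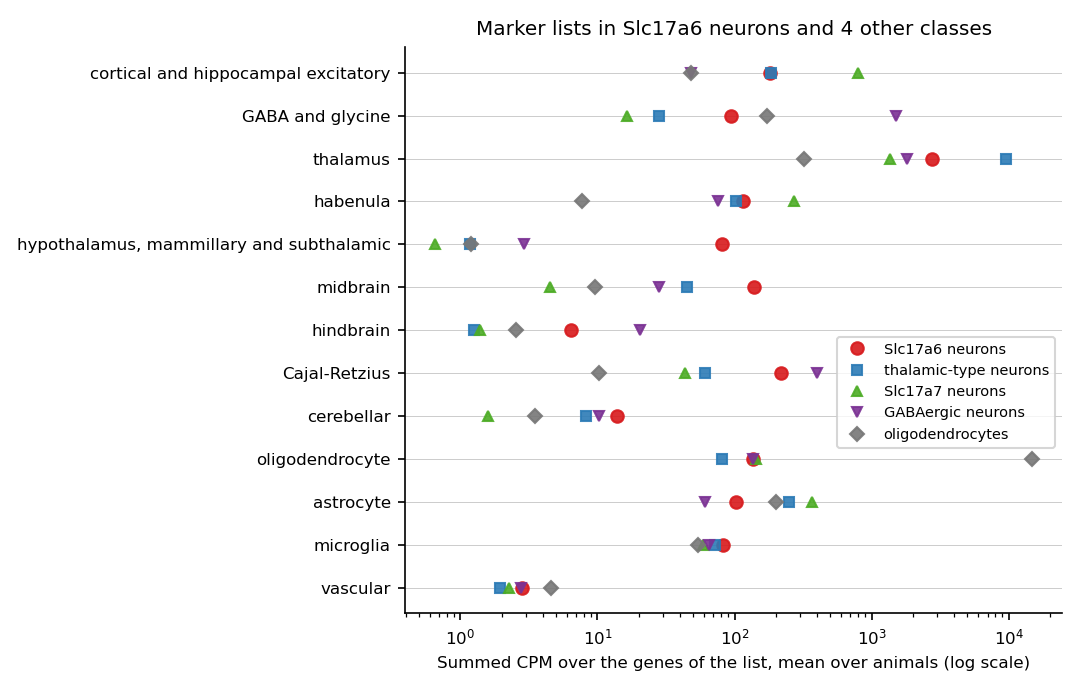
Summed CPM over the genes of each marker list (horizontal log axis), as the mean over mice, in the Slc17a6 neurons and in 4 other classes (one symbol each). The members stand far to the right of every other class for the hypothalamus, mammillary and subthalamic list (80.3 CPM) and highest for the midbrain list (139 CPM), and lie to the left of the class each list defines for the cortical, GABA and glycine, thalamus and oligodendrocyte lists.

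Ranked against all other eligible neurons, several transcription factors and noncoding genes were among the leading genes after Slc17a6. The ranking took the 7050 genes with at least 20 CPM in the members, so genes high only in other neurons were not ranked. Among them the transcription factor Sim1 was 10.3-fold higher in the members, Ebf2 7.7-fold, Ebf3 6.4-fold and Ebf1 4.75-fold. Ebf1, Ebf2 and Ebf3 are related helix-loop-helix factors of neuronal differentiation. Sfta3-ps, a noncoding gene next to Nkx2-1, was 6.3-fold higher, Bnc2 5.5-fold, Pappa2 5.5-fold and the glycine receptor subunit Glra1 4.67-fold. The long noncoding RNAs B230323A14Rik and Rmst were 10.6-fold and 4.25-fold higher. At least 1 of Ebf1, Ebf2 and Ebf3 was counted in 286 of 699 members (40.9%).

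Co-detection in single nuclei differed between pairs of these genes. Of the 115 members with Ebf2, 67.8% also had Ebf1, against 22.8% of the rest, and 59.1% had Ebf3, against 12.2%. Of the 76 members with Sim1, 4 had Ebf2 (5.26%, against 17.8% of the rest) and 0 had Tfap2d. Ebf1 was found in 27.6% of members with Sim1, against 30.5% of the rest, and Ebf3 in 22.4%, against 19.6%. Sfta3-ps was found in 27.6% of members with Sim1, against 8.19% of the rest, and in 13 of the 17 with Nkx2-1. The 110 members with Lef1 had Ebf1 in 59.1%, against 24.8%. These shares are over nuclei of all mice pooled and were not thinned to equal depth.

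By the authors' clusters at resolution 1, 395 members (56.5%) lay in cluster 2, led by Klhl1, Erbb4, Baiap3 and Prex2. Cluster 4 held 98 members with a median of 3203.5 UMIs, and Ebf2 stood at 406 CPM there (pooled over mice) against 90.9 CPM in the other members. Cluster 18 held 54 members with a median of 8636 UMIs, and Glra1, Syt2 and Sim1 led it. Cluster 8 held 61 members (8.73%), with Neurod6 at 84.5 CPM against 3.71 CPM in the other members and Pdzrn3 at 899 CPM against 60.3 CPM. Cluster 11 held 34 members (4.86%) with Synpo2 at 614 CPM against 10.7 CPM and Prkcd at 168 CPM against 1.12 CPM. Clusters 8 and 11 thus went against the working label, and the edgeR fits and the Malat1 level tests that follow were also run without them. Shares of nuclei and medians of gene lists were not. Cluster 10, with 20 members, had Pappa2, a metalloproteinase, among its leading genes (169 CPM), and another 11 clusters held 1 to 7 members each.

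The make-up of the class varied between mice. Sim1 was detected in 18.4, 14.5, 0 and 22.2% of members in the saline mice and in 13.2, 17.9, 19.5 and 13.8% after Malat1 ASO. After anti-TfR:Malat1 the shares were 14.9, 8.33, 1.89, 3.57, 4.17 and 5.45%, and after OTV:Malat1 9.38, 15.9 and 0%. The groups overlapped, and a mouse without Sim1 was found in both the saline and the OTV:Malat1 group. Ebf2 was detected in 13.5 to 25.9% of members in saline mice, 7.14 to 20.8% after Malat1 ASO, 0 to 25.5% after anti-TfR:Malat1 and 6.25 to 26.7% after OTV:Malat1. Meis2, a homeobox factor, was detected in 16.8% ± 9.48 (SD, n = 4) of members in saline mice and 34.0% ± 10.8 (n = 6) after anti-TfR:Malat1, with overlap. The share with Ebf1, Ebf2 or Ebf3 ran from 21.4 to 62.3% over the 17 mice. No test was made of these shares, which were not thinned.

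**Figure D2:**
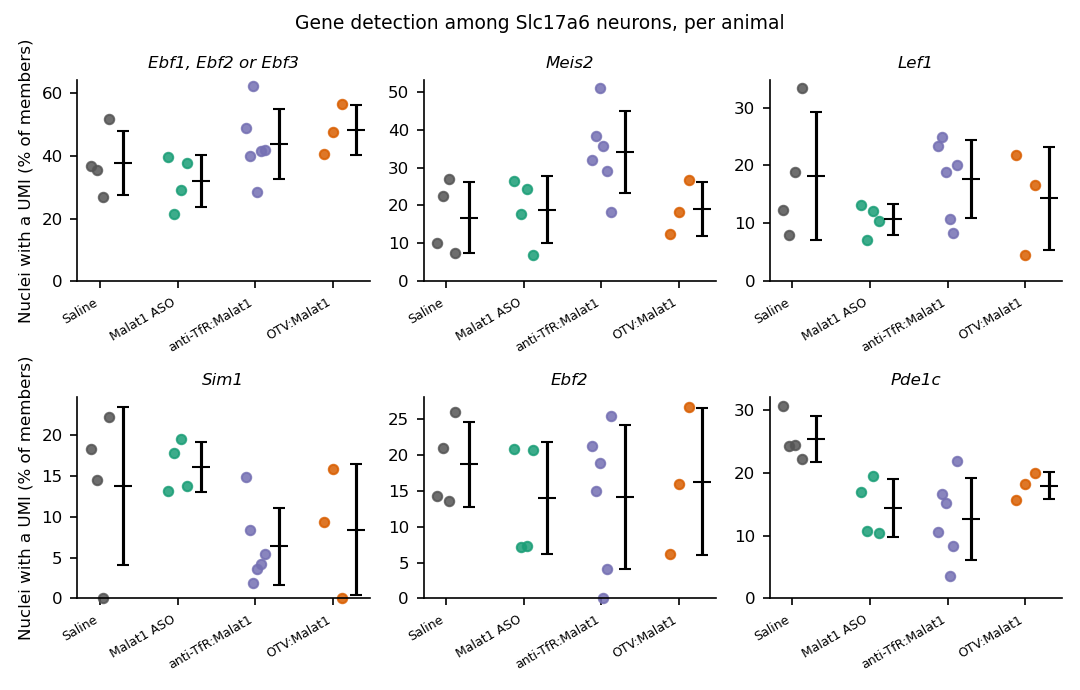
Percent of Slc17a6 neurons with at least 1 UMI of 6 genes or gene groups (one panel each, with its own vertical axis), by treatment group on the horizontal axis. Each point is 1 mouse and the bars are the group mean ± SD. Detection of Pde1c is higher in all 4 saline mice (22.2 to 30.6%) than in every treated mouse (3.57 to 21.8%), and the groups overlap for the other 5.

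Members made up 0.710, 0.773, 0.399 and 0.328% of eligible neurons in the saline mice (mean 0.553% ± 0.221, n = 4). The mean share was 0.477% ± 0.198 (n = 4) after Malat1 ASO, 0.522% ± 0.189 (n = 6) after anti-TfR:Malat1 and 0.414% ± 0.0953 (n = 3) after OTV:Malat1. None of 4 exact two-sided permutation tests over mice passed, with p of 0.4 for OTV:Malat1, 0.81 for anti-TfR:Malat1 and 0.771 for Malat1 ASO against saline, and 0.381 between the conjugates. The rule uses raw counts, and the shares were not adjusted for depth. Median UMIs per member were 6080, 6304.5, 4158 and 4511 in the saline mice. These medians averaged 5263 in saline, 4993 after Malat1 ASO, 5351 after anti-TfR:Malat1 and 4411 after OTV:Malat1. The part of depth in the shares was not tested.

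Malat1 (chr19:5795690-5802672, minus strand, lincRNA, GRCm38) was the most direct readout, as the target of all 3 compounds. It made up 5.07, 4.45, 5.41 and 3.17% of the members' UMIs in the saline mice, and 4.87, 3.97, 5.34 and 3.21% after Malat1 ASO. After anti-TfR:Malat1 it made up 3.46, 4.76, 5.91, 5.31, 4.29 and 4.40%. After OTV:Malat1 it made up 3.14, 3.55 and 3.49%. The OTV:Malat1 mice lay at the low end, but the lowest saline mouse was below 2 of the 3. The Malat1 ASO mice lay within the saline range and the anti-TfR:Malat1 mice overlapped it. Group means were 4.53% ± 0.988 for saline, 4.35% ± 0.948 for Malat1 ASO, 4.69% ± 0.851 for anti-TfR:Malat1 and 3.39% ± 0.225 for OTV:Malat1.

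**Figure D3:**
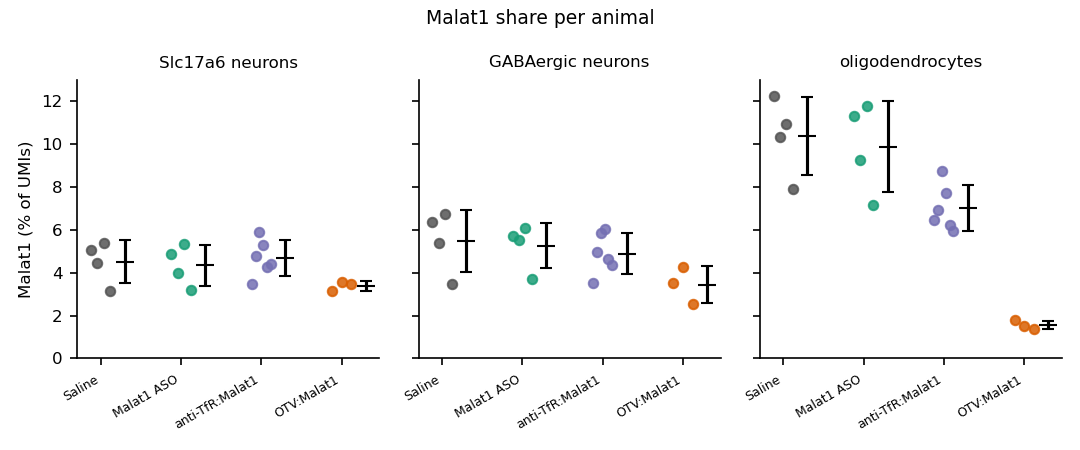
Malat1 as a percent of all UMIs (vertical axis) by treatment group in the Slc17a6 neurons, GABAergic neurons and oligodendrocytes (one panel each), 1 point per mouse, with bars for the group mean ± SD. In the Slc17a6 neurons the 3 OTV:Malat1 mice lie between 3.14 and 3.55%, within the 3.17 to 5.41% span of the saline mice or just under it, while in oligodendrocytes they average 1.56% ± 0.204 against 10.4% ± 1.81 in saline.

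On the log2 scale Malat1 was 0.44 lower after OTV:Malat1 than after saline by edgeR (log2 fold change -0.44, SE 0.16, unadjusted p = 0.0107, adjusted p = 1.00 over 5251 genes). Between OTV:Malat1 and anti-TfR:Malat1 the edgeR log2 fold change was -0.53 (SE 0.15, unadjusted p = 0.00148, adjusted p = 0.648). Neither passed, and 4% and 6.13% of all tested genes had an unadjusted p under 0.05 in these 2 comparisons. The log2 fold change was 0.09 (SE 0.14) for anti-TfR:Malat1 and -0.05 (SE 0.15) for Malat1 ASO against saline. Over mice alone, none of the 6 pairs of groups passed an exact permutation test of log2(CPM + 1). For OTV:Malat1 against saline the difference was -0.39 (exact p = 0.171, adjusted 0.343), in a design whose smallest p is 0.0571. Against anti-TfR:Malat1 it was -0.45 (exact p = 0.0714, adjusted 0.343). The batch numbers in the authors' metadata split the first of these. OTV:Malat1 minus saline was -0.51 in batch 2 and -0.61 in batch 3, and 0.14 in batch 4, where saline mouse 4 had the lowest saline value. Set against anti-TfR:Malat1, OTV:Malat1 was at -0.60, -0.66 and -0.31 in those 3 batches.

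The mean Malat1 level in CPM after OTV:Malat1 was 74.9% of the saline mean in the Slc17a6 neurons, 70.1% in thalamic-type, 67.9% in Slc17a7 and 62.7% in GABAergic neurons, and 15.0% in oligodendrocytes. After anti-TfR:Malat1 it was 104% in the members, 97.1, 90.8 and 89.1% in the other neurons, and 67.7% in oligodendrocytes. To test whether the members differed from another class, the within-mouse difference in log2(CPM + 1) of Malat1 was compared between groups in 16 exact permutation tests, of which none passed after adjustment. Against oligodendrocytes, the members of saline mice were lower in Malat1 by 1.21 ± 0.133 on average (difference -1.21, n = 4). The difference was -0.59 ± 0.161 after anti-TfR:Malat1 (n = 6) and 1.13 ± 0.276 after OTV:Malat1 (n = 3). All 6 anti-TfR:Malat1 mice and all 3 OTV:Malat1 mice lay above every saline mouse, with changes of 0.62 (exact p = 0.00952, adjusted 0.0762) and 2.34 (exact p = 0.0571, adjusted 0.183). Both p-values are the smallest their designs allow.

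The difference from Slc17a7 neurons was -0.57 ± 0.0493 in the anti-TfR:Malat1 mice and -0.76 ± 0.0431 in the saline mice. All 6 mice lay above every saline mouse (change 0.19, exact p = 0.00952, the smallest possible, adjusted 0.0762). Against GABAergic neurons the change was 0.20, with 5 of 6 mice above all saline mice (exact p = 0.019, adjusted 0.0952). Permuted within batches, each of these 3 anti-TfR:Malat1 changes gave the smallest exact p that design allows, 0.0556. Against thalamic-type neurons the change was 0.09 (exact p = 0.114, adjusted 0.305). For OTV:Malat1 against saline the change was 0.10 from thalamic-type neurons (exact p = 0.457), 0.15 from Slc17a7 neurons (exact p = 0.629) and 0.27 from GABAergic neurons (exact p = 0.229).

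**Figure D4:**
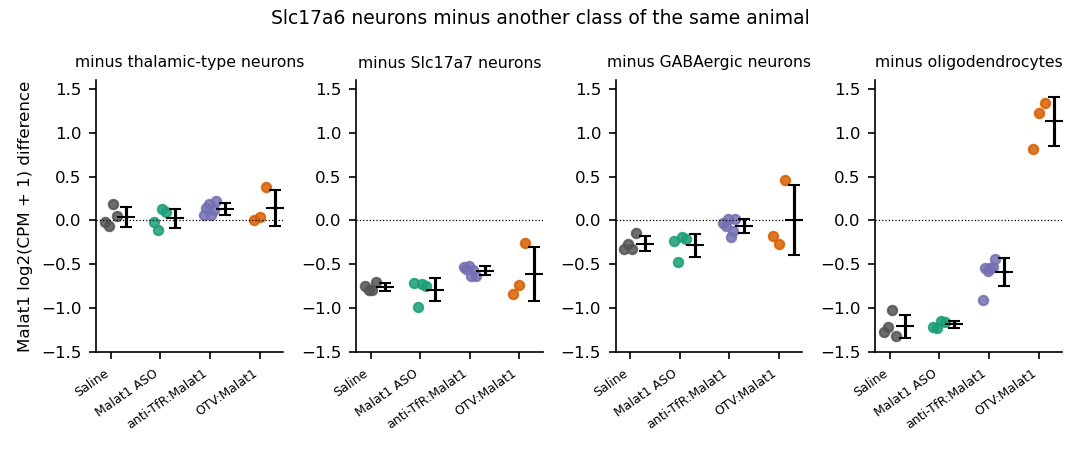
Malat1 log2(CPM + 1) in the Slc17a6 neurons minus that in 1 other class of the same mouse (vertical axis; one panel per class), by treatment group, 1 point per mouse, with bars for the mean ± SD and a dotted line at 0. The difference from oligodendrocytes moves from -1.21 in saline to 1.13 after OTV:Malat1, while the difference from thalamic-type neurons overlaps between all 4 groups.

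Single nuclei were read at a fixed depth by drawing 500 UMIs from each member. A nucleus was called low when fewer than 12 were Malat1, the 10th percentile of saline members. The cut thus came from the saline side, whose mean share it kept low beforehand. The exact tests against saline do not account for this. The low share was 4.08, 6.45, 5.41 and 18.5% in saline mice, and 5.66, 17.9, 0 and 27.6% after Malat1 ASO. It was 23.4, 8.33, 3.77, 7.14, 12.5 and 7.27% after anti-TfR:Malat1, and 25, 22.7 and 20% after OTV:Malat1. All 3 OTV:Malat1 mice were above every saline mouse, by 14.0 percentage points on average (exact permutation p = 0.0571, the smallest possible, adjusted 0.143). Against anti-TfR:Malat1 the difference was 12.2 points (exact p = 0.0714, adjusted 0.143), with 1 anti-TfR:Malat1 mouse inside the OTV:Malat1 range. None of the 4 comparisons passed.

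Across the 5251 genes tested by edgeR with Benjamini-Hochberg adjustment, 1 gene was called for anti-TfR:Malat1 against saline (0.019% of genes tested) and none for OTV:Malat1 against saline (0%), Malat1 ASO against saline (0%) or OTV:Malat1 against anti-TfR:Malat1 (0%). At an unadjusted p under 0.05 these comparisons held 330 (6.28%), 210 (4%), 206 (3.92%) and 322 genes (6.13%). DESeq2 called 6, 0, 0 and 0. Its 6 genes, Cacna2d3, Dpp10 and Nrxn3 (higher) and Dgkb, Galntl6 and Pcdh11x (lower), were not called by this edgeR fit. DESeq2 gave no adjusted p to the gene that this edgeR fit called. Without the filter on low counts, edgeR called all of those 6 genes but Pcdh11x, in the same directions. In simulated counts of this size with known changes, the same fit for OTV:Malat1 against saline recovered 39% of genes changed 2-fold and 89% of those changed 4-fold. Most changes under 2-fold could thus not be detected in that comparison.

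The gene called was Pde1c (chr6:56069804-56569103, minus strand, protein coding, GRCm38), a calcium- and calmodulin-dependent phosphodiesterase that breaks down cyclic nucleotides. It stood at 129, 146, 172 and 234 CPM in the saline mice, and at 24.6, 66.6, 49.2, 8.71, 43.9 and 77.6 CPM after anti-TfR:Malat1. It stood at 69.2, 36.1, 63.6 and 41.3 CPM after Malat1 ASO and at 69.2, 65.1 and 49.9 CPM after OTV:Malat1. Every saline mouse was above every treated mouse of all 3 groups. This separation was shared by 4 of the 5251 genes (0.0762%), the others being Pdp1, Pcdh15 and Rtl1, chosen after their values were seen. The edgeR log2 fold change of Pde1c was -1.67 (SE 0.26, adjusted p = 0.00104) for anti-TfR:Malat1, and it fell short of the threshold at -1.52 (SE 0.30, adjusted p = 0.0595) for Malat1 ASO and -1.40 (SE 0.34, adjusted p = 0.599) for OTV:Malat1. Without the filter on low counts, edgeR also called Pde1c lower for Malat1 ASO (adjusted p = 0.000361) and for OTV:Malat1 (adjusted p = 0.0135). The 3 comparisons share the same saline mice.

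**Figure D5:**
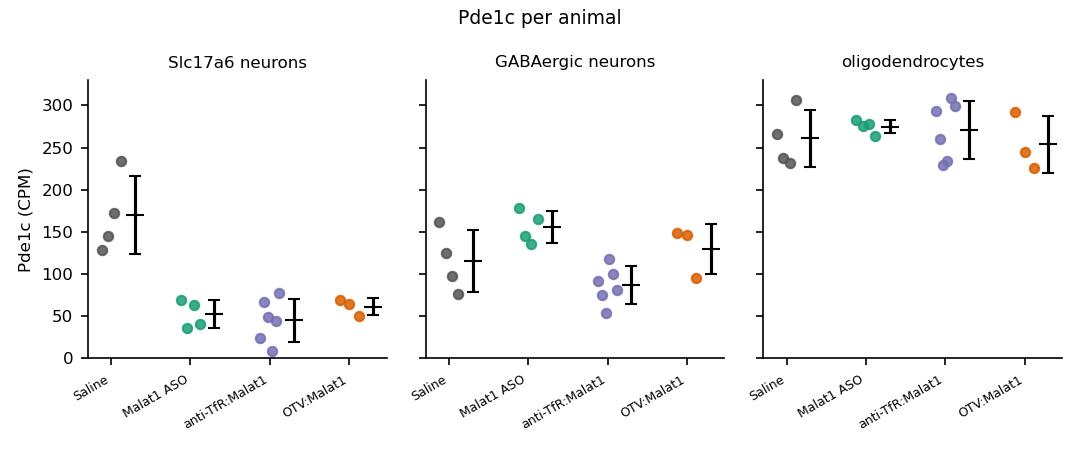
Pde1c in CPM (vertical axis) by treatment group in the Slc17a6 neurons, GABAergic neurons and oligodendrocytes (one panel each), 1 point per mouse, with bars for the group mean ± SD. In the Slc17a6 neurons the 4 saline mice lie between 129 and 234 CPM and all treated mice between 8.71 and 77.6 CPM, while in the other panels saline and treated mice overlap.

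The Pde1c count was small, 306 UMIs in 125 members. It was detected in 25.3% ± 3.65 of members in saline mice and 12.7% ± 6.50 after anti-TfR:Malat1, values given here without a test. Nuclei with 3 or more Pde1c UMIs numbered 8, 9, 4 and 4 in the saline mice and 0 to 3 in each treated mouse. Of the nuclei with Pde1c, 24.0% had Sfta3-ps (7.32% of the rest), 19.2% had Sim1 (9.06% of the rest), 12.8% had Lhx1 (4.01% of the rest) and 4.00% had Lef1 (18.3% of the rest). Fewer nuclei of a Pde1c-rich kind and less Pde1c per nucleus cannot be told apart.

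In all 4 classes set beside the members, the Pde1c levels of saline and treated mice overlapped. Group means were 14.3 to 21.2 CPM in thalamic-type neurons (14.7 CPM in saline) and 5.35 to 7.53 CPM in Slc17a7 neurons (6.11 CPM in saline). In GABAergic neurons Pde1c stood at 115 CPM ± 37.1 in saline mice, 86.9 ± 22.2 after anti-TfR:Malat1, 130 ± 29.8 after OTV:Malat1 and 156 ± 19.1 after Malat1 ASO. Oligodendrocytes held more, with group means of 254 to 275 CPM, while the summed oligodendrocyte list in the members ran from 123 to 156 CPM in saline mice and 36.6 to 192 CPM after anti-TfR:Malat1. The part of that list in the Pde1c result was not tested. The call also rested on the rule: with 2 or more Slc17a6 UMIs (2565 nuclei) the anti-TfR:Malat1 log2 fold change was -0.88 (edgeR adjusted p = 0.24), and with up to 1 Slc17a7 UMI it was -1.41 (edgeR adjusted p = 0.0743). Without clusters 8 and 11 it was -1.76 (edgeR adjusted p = 0.000789).

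The next 4 genes for anti-TfR:Malat1 against saline did not pass in edgeR, and their calls depended on the fit. With batch as a block, edgeR called Cdh20 (adjusted p = 0.0400), Meis2 (adjusted p = 0.0400) and Hap1 (adjusted p = 0.0419), and without the filter on low counts it called all 4. Hap1, which encodes huntingtin-associated protein 1 and is abundant in hypothalamic neurons, stood at 132, 108, 113 and 109 CPM in saline mice and 52.3, 31.9, 34.1, 61.0, 80.4 and 67.5 CPM after anti-TfR:Malat1, without overlap, as for 0.857% of the genes tested (log2 fold change -1.14, SE 0.23, adjusted p = 0.0523). Esr1, the estrogen receptor alpha, stood at 139, 62.8, 83.0 and 7.78 CPM in saline mice and at 0 to 37.1 CPM after anti-TfR:Malat1, with saline mouse 4 inside the treated range (log2 fold change -1.93, adjusted p = 0.0543). Cdh20, a cadherin, stood at 92.0 CPM ± 23.2 in saline mice and 178 ± 37.3 after anti-TfR:Malat1 (log2 fold change 1.05, adjusted p = 0.0523). Meis2 stood at 138 CPM ± 102 and 363 ± 112 (log2 fold change 1.38, adjusted p = 0.0543). Mean Hap1 was 115 CPM in saline mice, 84.5 after Malat1 ASO and 92.7 after OTV:Malat1. In the same order, mean Esr1 was 73.1, 32.4 and 10.1 CPM. Mean Cdh20 was 92.0, 92.9 and 104 CPM, and mean Meis2 was 138, 178 and 193 CPM. In saline and anti-TfR:Malat1 mice, Cdh20 averaged 1297 and 1388 CPM in oligodendrocytes, and 127 and 132 CPM in GABAergic neurons. It averaged 42.5 and 46.1 CPM in Slc17a7 neurons, and 73.8 and 56.9 CPM in thalamic-type neurons. The part of other cell types in the Cdh20 difference was not tested. Without the filter on low counts, edgeR also called Esr1 lower for OTV:Malat1 (adjusted p = 0.00193). Among members, Meis2 was highest in clusters 10 (771 CPM pooled over mice) and 8 (511 CPM) and at 0 in cluster 11, and Esr1 was highest in cluster 18 (101 CPM). Cluster 8 made up 4.42% ± 4.70 of members in saline mice and 11.8% ± 5.46 after anti-TfR:Malat1. Without clusters 8 and 11, the Meis2 log2 fold change was 1.49 (SE 0.33, edgeR adjusted p = 0.113).

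With the filter on low counts, no gene of a pathway list was called by edgeR in any of the 4 comparisons. Of 24 glutamate receptor genes, 21 could be tested, and their median log2 fold change was 0.18 for anti-TfR:Malat1 against saline, with 17 above 0, beside a median of -0.00 and 2608 of 5251 above 0 for all genes. It was 0.07 for OTV:Malat1 and 0.12 for Malat1 ASO. The AMPA receptor subunits Gria2 and Gria4 were detected in 682 and 662 members, at 1027 and 1187 CPM. The NMDA receptor subunit Grin2a stood at 450 CPM ± 56.3 in saline mice and 653 ± 101 after anti-TfR:Malat1 (log2 fold change 0.57, edgeR adjusted p = 0.24). The kainate receptor subunit Grik2 stood at 1948 CPM ± 416 and 1452 ± 182 (log2 fold change -0.38, edgeR adjusted p = 0.515). The 10 tested genes of glutamate transport and metabolism had medians of 0.07, 0.07 and -0.02 for OTV:Malat1, anti-TfR:Malat1 and Malat1 ASO against saline.

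Of 15 immediate early genes, which neurons switch on with activity, 6 could be tested. Their median log2 fold changes were -0.82 for OTV:Malat1, -0.53 for anti-TfR:Malat1 and -0.45 for Malat1 ASO against the same 4 saline mice, beside all-gene medians of 0.00, -0.00 and 0.01. Junb stood at 19.4, 55.3, 59.3 and 70.1 CPM in saline mice and at 3.08 to 29.2 CPM after anti-TfR:Malat1, with overlap through saline mouse 1 (log2 fold change -1.96, SE 0.58, edgeR adjusted p = 0.293). Without the filter on low counts, edgeR called Junb lower (log2 fold change -1.92, SE 0.43, adjusted p = 0.00685). Fos stood at 43.7 CPM ± 14.4 in saline mice and 15.9 ± 21.5 after anti-TfR:Malat1 (log2 fold change -1.60, edgeR adjusted p = 0.548).

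Of 15 listed nuclear long noncoding RNAs, 13 could be tested, Malat1 itself being 1 of them. Their medians, with Malat1 included, were -0.13 for OTV:Malat1, 0.02 for anti-TfR:Malat1 and -0.01 for Malat1 ASO against saline. Neat1, the neighbour of Malat1 and scaffold of paraspeckles, had 15 UMIs in 14 members and was not tested, and none of the 17 listed genes around Malat1 passed the filter on low counts. The mouse receptor gene Tfrc had 96 UMIs in 84 members and was also not tested. No interferon response gene of 19 in the files passed the filter, and Irf7, Oas1a, Rsad2, Usp18, Bst2 and Zbp1 were at 0 of 699. The 7 tested genes of RNase H and nuclear RNA decay, the machinery that acts on and clears ASO targets, had medians of -0.24, -0.15 and -0.05, and the 3 tested iron genes had medians of -0.18, -0.07 and -0.02, in the same order of compounds. The 5 tested stress genes had medians of 0.34, 0.20 and 0.04, and the 12 tested lysosome and endosome genes had medians of 0.02, 0.23 and 0.05.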

How the data were processed

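Nuclei were isolated from frozen tissue, stained with DAPI, sorted and profiled on the 10x platform, per the labels' protocols. The deposited matrix holds integer UMI counts of 26131 genes. Cell Ranger 6.0.1, Seurat 4 and build mm10 (GRCm38) are named in the submitters' processing notes. The authors deposited cell type labels, doublet calls, clusters and a batch number that no source used here explains. Of the metadata columns, 11 were not used. Gene coordinates came from GENCODE M21.

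Counts were summed per mouse over the member nuclei, and genes passing filterByExpr were fitted for all 17 mice with TMM scaling by edgeR 4.0.16 (glmQLFit, glmQLFTest, R 4.3.3). Adjusted p-values are Benjamini-Hochberg over all genes, with a threshold of 0.05. Single values were compared by exact two-sided permutation over mice, doubling the smaller tail, in Python 3.11.15 (scipy 1.17.1). For the member class, a pseudocount of 1 CPM was used on the log2 scale, mice needed 20 or more nuclei, and thinning to 500 UMIs was seeded. No mouse was dropped. DESeq2 1.42.0, other rules for members, blocks by replicate number or batch and leaving out each mouse were alternatives; leaving out clusters 8 and 11 was added after seeing the data. The edgeR fit was tested on simulated data.

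The genes named were Malat1, Neat1, Tfrc, the marker and pathway lists, leading genes of the class and its clusters, called genes and the next in rank. The members and lists were chosen with earlier results of these data known. Replicate numbers were not treated as pairs. The labels do not say whether the mice were littermates. Intervals cover counting error only.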

Additional observations from a re-analysis of the deposited data

Results flagged for a closer look

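Among 27 groups of 4 to 6 mice, 4 held a mouse whose gap to the nearest other was wide for the range of its group by Dixon's criterion, which chance exceeds in about 1 in 20 groups. Saline mouse 4 had 18.5% of Slc17a6 neurons low in Malat1, and the next saline mouse had 6.45%. Malat1 ASO mouse 2 had a Malat1 log2 difference of -0.99 between the Slc17a6 neurons and the Slc17a7 neurons, the next being -0.74, and of -0.48 from the GABAergic neurons, the next being -0.24. The first mouse of the anti-TfR:Malat1 group had a Malat1 log2 difference of -0.90 between the Slc17a6 neurons and oligodendrocytes, the next being -0.57, and it still lay above every saline mouse.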

How the results depend on the processing

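In the comparison of anti-TfR:Malat1 with saline, Pde1c passed in 10 of 12 alternatives that gave it an adjusted p and in all 17 fits that each left out 1 mouse. One of the 10, a limit of 1000 UMIs or more per nucleus, kept all 699 members, so it repeated the main fit and could not differ. Fits without a Malat1 ASO or OTV:Malat1 mouse kept every mouse of this comparison, and only the gene filter, scaling and shared spread could change. The number of genes called, 1, became 6 by DESeq2, which gave Pde1c no adjusted p, 5 with only the groups compared, 5 with a batch block, 2 with Tcf7l2 at 0, 3 with doublets kept, and 0 with Slc17a6 at 2 or more or with Slc17a7 at most 1. Without the filter on low counts the calls were 39 for this comparison, 6 for OTV:Malat1 and 9 for Malat1 ASO against saline, and 10 between the conjugates, with Pde1c among those of each comparison with saline. Malat1 ASO against saline gave 1 with only the groups compared. The 21 correlations between same-numbered mice of 2 groups were -0.0638 to 0.0819. Malat1 in the members nevertheless had the same order by mouse number in saline (5.07, 4.45, 5.41 and 3.17%) and Malat1 ASO mice (4.87, 3.97, 5.34 and 3.21%). In these 2 groups the mouse number equals the batch number. OTV:Malat1 mice 1 to 3 were in batches 2 to 4, so their correlations with these groups paired different batches. A replicate block gave 9 calls for anti-TfR:Malat1, among them Meis2 (edgeR adjusted p = 0.00363), Hap1 (0.00588), Cdh20 (0.0166) and Esr1 (0.0231), and 0 in the other comparisons. Replicate numbers 5 and 6 occur only in the anti-TfR:Malat1 group, so in that fit those mice do not enter the comparison with saline. Leaving out 1 mouse gave 1 to 8 calls for anti-TfR:Malat1, 0 to 1 for Malat1 ASO (Pde1c, without Saline 1 or anti-TfR:Malat1 1, 4 or 6) and 0 to 1 between the conjugates (without OTV:Malat1 1). For anti-TfR:Malat1 the count was 2 without Saline 2, Saline 3 or anti-TfR:Malat1 5, 3 without Saline 4, 4 without Malat1 ASO 3 or OTV:Malat1 3, 5 without Malat1 ASO 4 or OTV:Malat1 1, 6 without OTV:Malat1 2 and 8 without anti-TfR:Malat1 6.

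Small differences that did not pass changed sign under some settings, and the cause was not tested. With doublets kept, the Malat1 log2 fold change for anti-TfR:Malat1 against saline was -0.0355 by edgeR and -0.0603 over mice, and over mice it was -0.0135 with Slc17a6 at 2 or more. Relative to thalamic-type neurons, doublets kept gave -0.0284 for OTV:Malat1, -3.6e-05 for anti-TfR:Malat1 and -0.0283 between the conjugates, the last being -0.0210 without clusters 8 and 11. There Malat1 ASO gave 0.0035 with Slc17a6 at 2 or more and 0.0178 with Tcf7l2 at 0, and 0.0128 relative to GABAergic neurons with Tcf7l2 at 0. Relative to Slc17a7 neurons the conjugates differed by 0.0736 with Slc17a6 at 2 or more. Relative to oligodendrocytes Malat1 ASO gave -0.0215 with doublets kept and -0.0276 without clusters 8 and 11. The low-Malat1 share differed from saline by -0.724, -4.57 and -1.61 points for anti-TfR:Malat1 (Slc17a6 at 2 or more, Tcf7l2 at 0, 1000 UMIs) and by -0.112 and -4.24 points for Malat1 ASO (Slc17a6 at 2 or more, Tcf7l2 at 0). The class share differed by 0.171 points for anti-TfR:Malat1 and 0.0053 for Malat1 ASO with Slc17a6 at 2 or more, and by 0.0172 for anti-TfR:Malat1 within batches.

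Leaving out 1 mouse moved Malat1 by edgeR from -0.0452 to 0.179 for anti-TfR:Malat1 and from -0.189 to 0.0692 for Malat1 ASO. Over mice it moved from -0.102 to 0.155, from -0.218 to 0.0803 and, between those 2 compounds, from -0.0210 to 0.224. The sign changed without Saline 4 or anti-TfR:Malat1 3 for anti-TfR:Malat1, without Saline 3, Malat1 ASO 4 or, over mice, Saline 1 for Malat1 ASO, and without Malat1 ASO 4 between them. Relative to thalamic-type neurons the ranges were -0.0166 to 0.172 for OTV:Malat1, -0.0461 to 0.0391 for Malat1 ASO and -0.109 to 0.0796 between the conjugates. Relative to Slc17a7 neurons they were -0.0236 to 0.264, -0.0604 to 0.0321 and -0.210 to 0.0779. Relative to GABAergic neurons they were -0.0455 to 0.0491 for Malat1 ASO and -0.161 to 0.203 between the conjugates, and relative to oligodendrocytes -0.0148 to 0.0863 for Malat1 ASO. The low share ranged from -1.11 to 7.47 points for anti-TfR:Malat1 and -0.775 to 8.42 for Malat1 ASO, and the class share from -0.106 to 0.0423 for anti-TfR:Malat1. Slc17a6 at 4 or more (187 nuclei) left too few mice and was run for the class share only. The other Malat1 and share differences kept their sign and their side of the threshold in the alternatives run, and the small sums of UMIs limit the precision of all of them.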

Other observations

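Neuropeptides and calcium-binding proteins, which mark small groups of subcortical neurons, were each held by a minority of the Slc17a6 neurons. Of 20 listed genes, 3 had enough counts to be tested between treatments, and none was called by edgeR. Cck, the cholecystokinin precursor, had a UMI in 152 of 699 members, at 45.5 CPM ± 21.1 over the 17 mice. Calb1, the calcium buffer calbindin, had a UMI in 99 members and Calb2, calretinin, in 51. The peptide precursors Sst, Penk, Tac1 and Adcyap1 had a UMI in 67, 51, 50 and 41 members. Sst stood at 22.5 CPM ± 16.3 and Penk at 22.3 CPM ± 27.8, the latter ranging from 0 to 116 CPM between mice. Pdyn and Trh, peptides of hypothalamic neurons among others, had a UMI in 11 and 10 members, and Ucn was at 0 of 699, which allows a share of nuclei with a UMI of up to 0.429%.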
